A study of Mus musculus with 20 samples.

Results

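The genes described here encode the extracellular matrix of brain tissue and of its blood vessels, together with the perineuronal nets, the dense matrix that coats some neurons. They were picked by a rule on symbols, set with earlier results of these data known. It took every collagen chain (Col and a digit), every laminin chain (Lama, Lamb or Lamc and a digit), and a fixed list of proteoglycans, link proteins, tenascins, nidogens and matricellular proteins. The rule found 60 of the 12988 genes measured. Col4a3bp is among the 60 by its symbol only, since it encodes a ceramide transfer protein and no collagen, so 59 are matrix genes. Has2, a hyaluronan synthase, and Col3a1, a fibrillar collagen, were not analysed here.

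Tissue came from the bed nucleus of the stria terminalis (its anterodorsal division), a forebrain region involved in responses to stress, in female and male mice that were 7 to 9 weeks old when the experiment began. The 4 groups were female controls, stressed females, male controls and stressed males, with 15 mice in each, and the labels give no strain and no transgene. Stressed mice went through 6 weeks of chronic variable mild stress, a changing schedule of minor stressors, and their tissue was collected 1 hour after a final period on wet bedding. All mice were anesthetized with ketamine, and tissue from 3 mice was pooled into each library, so that each group has 5 libraries and p-values measure the spread between these pools rather than between single mice.

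The matrix between cells is built from a few families with distinct roles. Basement membranes are sheets of type IV collagen and laminin joined by nidogens and heparan sulfate proteoglycans, and in the brain they surround blood vessels. The space between neurons holds little fibrillar collagen and is filled instead with hyaluronan, made by Has enzymes, to which lecticans (Acan, Ncan, Vcan) bind through link proteins (Hapln1, Hapln4) and which tenascins crosslink. In perineuronal nets this lattice is condensed around cell bodies, most often of parvalbumin interneurons. Collagen VI, SPARC and SPARC-like 1 are secreted proteins of the pericellular space, the last pair coming largely from glia and blood vessels.

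Promoter windows from RefSeq (GRCm38.p6, 250 bases before to 50 after a transcription start) were found for 41 of the 59 matrix genes. Those of the type IV and type VI collagens are shown because in each family a pair of neighbouring genes varied together between libraries, as described further on. Col4a1 and Col4a2 lie head to head on opposite strands of chromosome 8, and the Col4a1 window is chr8:11312777-11313076 on the minus strand while the Col4a2 window is chr8:11312555-11312854 on the plus strand. The capitals mark 22 bases that the annotation (GENCODE M21) places in the first exons of both genes.
Col4a1: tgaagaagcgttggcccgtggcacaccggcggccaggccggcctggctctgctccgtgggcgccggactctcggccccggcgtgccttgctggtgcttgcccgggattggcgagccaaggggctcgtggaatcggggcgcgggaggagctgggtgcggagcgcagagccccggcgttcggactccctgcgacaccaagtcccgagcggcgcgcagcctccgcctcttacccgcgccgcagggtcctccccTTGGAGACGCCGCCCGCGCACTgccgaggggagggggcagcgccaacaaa
Col4a2: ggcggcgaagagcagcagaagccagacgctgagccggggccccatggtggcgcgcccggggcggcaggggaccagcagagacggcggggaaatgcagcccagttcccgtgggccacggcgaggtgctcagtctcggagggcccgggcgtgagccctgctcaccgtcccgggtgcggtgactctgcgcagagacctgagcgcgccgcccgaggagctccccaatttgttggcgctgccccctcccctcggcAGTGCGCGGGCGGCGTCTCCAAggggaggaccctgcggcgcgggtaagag

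Col6a1 and Col6a2 lie on the minus strand of chromosome 10, 85.2 kb apart. Their windows are chr10:76725995-76726294 and chr10:76623581-76623880, the latter being 1 of the RefSeq windows of Col6a2. Capitals mark GGGCGG, searched on both strands and so also read as CCGCCC, which occurs in the Col6a2 window and not in the Col6a1 window.
Col6a1: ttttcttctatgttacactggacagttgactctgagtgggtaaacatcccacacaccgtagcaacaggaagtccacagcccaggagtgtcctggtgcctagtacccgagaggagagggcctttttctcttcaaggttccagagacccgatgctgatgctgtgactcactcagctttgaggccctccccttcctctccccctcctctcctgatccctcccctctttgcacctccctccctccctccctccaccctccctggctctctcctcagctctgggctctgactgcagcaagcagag
Col6a2: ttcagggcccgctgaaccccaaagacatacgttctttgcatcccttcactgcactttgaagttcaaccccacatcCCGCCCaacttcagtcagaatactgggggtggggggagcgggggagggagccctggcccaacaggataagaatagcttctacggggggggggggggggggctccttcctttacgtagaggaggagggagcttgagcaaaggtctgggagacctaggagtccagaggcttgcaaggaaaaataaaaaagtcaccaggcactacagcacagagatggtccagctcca

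GGGCGG occurred in 72.3% of the 47 windows of matrix genes, against 35.7% of all 32851 windows of the same 300 bases. The matrix windows were also richer in G and C, with a median of 60.0% against 52.7%. TATAAA (or TTTATA) occurred in 8.51% of the matrix windows against 13.6% of all, and CCAAT (or ATTGG) in 34.0% against 37.4%. These are matches of letters in a window and say nothing of binding.

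Levels are given as CPM, which are counts scaled to the size of each library with TMM factors, and between genes as CPM per kb of annotated exon. Sparcl1 (656 CPM per kb) and Sparc (170 CPM per kb) stood far above the other matrix genes and together made up 58.1% of the summed CPM of the 60 genes. Next came Col6a1 (48.4), the lectican Ncan (28.2) and the proteoglycan Agrn (26.1), then Col25a1 (10.1), a collagen with a transmembrane segment, and Tnr (9.99), the tenascin of perineuronal nets. The chains of vascular basement membranes were lower, with Col4a2 at 9.46, Lamc1 at 6.27 and Hspg2 at 1.05 CPM per kb. Low levels were those of Tnc (0.433), Lama4 (0.451) and Col26a1 (0.462), and the lecticans spanned much of this range, since Acan stood at 0.551. The median over the 60 genes was 1.48 CPM per kb against 7.21 for all genes, so most of these genes are weakly represented in this tissue. Col11a2 was the highest fibrillar chain. Col4a1 was 7.13 times as high per kb as Col1a1, a chain of the main fibrillar collagen of connective tissue.

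**Figure D1:**
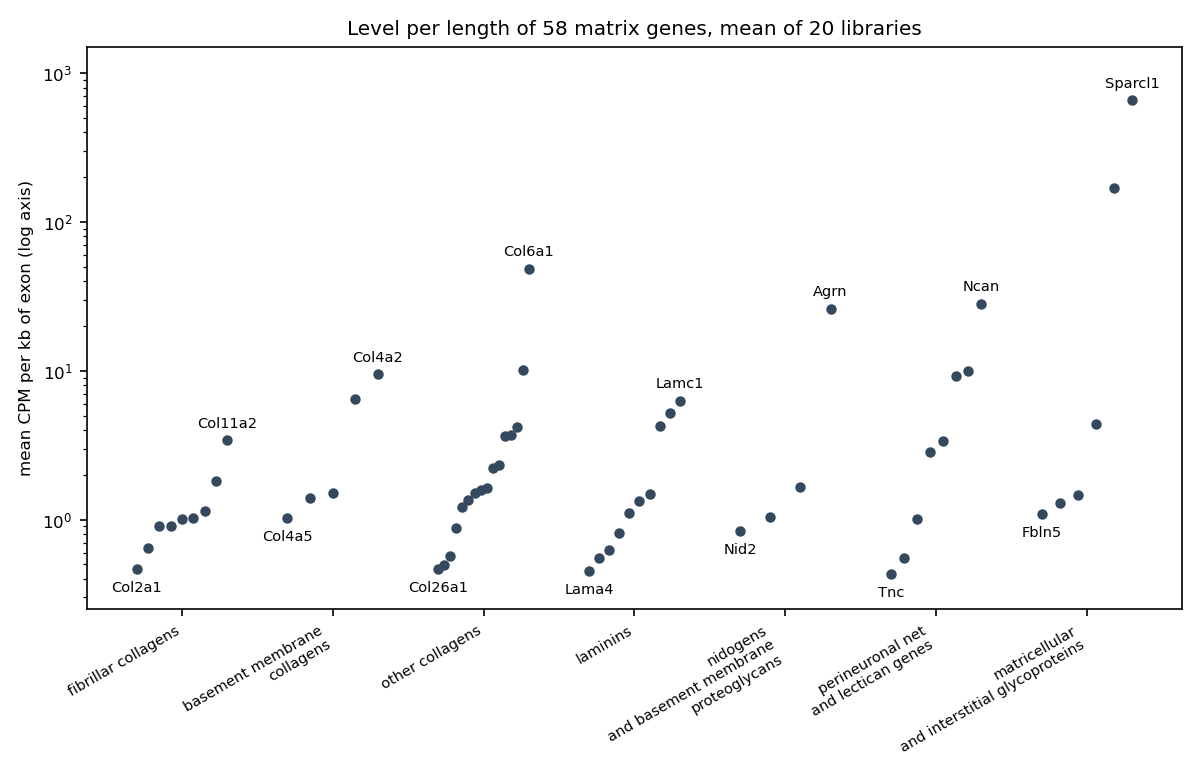
Mean level over 20 libraries of each of 58 matrix genes, in CPM per kb of exon on a log axis, with 1 point per gene and the genes ordered by level within their role. The highest and the lowest gene shown in each role are named. Sparcl1 at 656 and Tnc at 0.433 CPM per kb are the ends of the range.

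Total counts ranged from 2707881 in the shallowest library to 33595388 in the deepest, and all 60 genes passed the filter on low counts. In the shallowest library, female control 4, 3 of the 60 genes had under 10 counts, and in every other library none did. The genes varied more between libraries of a group than most: their median biological coefficient of variation was 11.8% against 7.72% for all genes, and 54 of 60 lay above that figure. All 15 marker genes of the region's neurons were present, and their summed level ranged from 2539 to 3058 CPM. This sum rests largely on the GABA synthesis genes Gad2 (mean 1125 CPM) and Gad1 (mean 706 CPM), so its range does not measure capture of the region. Marker sums of neighbouring regions varied: the 12 striatal neuron markers summed to between 2383 and 5190 CPM, and the 8 thalamic markers to between 227 and 450.3 CPM. Male stressed 3 had the highest striatal sum and the lowest sums of the thalamic markers and of the region's own markers. Female stressed 2 had the highest thalamic sum and female control 3 the highest oligodendrocyte sum.

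No matrix gene passed the test in any of the 6 contrasts, namely the effect of stress on either sex, the difference between males and females among control mice and among stressed mice, the stress effect in males minus that in females, and the mean of both. The count was 0 of 60 at an adjusted p under 0.05 in each (edgeR's quasi-likelihood test with Benjamini-Hochberg adjustment over all genes). Over all genes the share called was 0% for stressed against control females, 0.0077% for stressed against control males, 0.747% for the sexes among controls, 0.077% for the sexes among stressed mice, and 0% for each of the last 2 contrasts. DESeq2 called 2 of the 60 for stress in males, Col16a1 and Col11a1, where it called 1.84% of all genes. It called 1 for sex in controls, Col25a1, where it called 1.91% of all genes, and none in the other 4 contrasts.

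At an unadjusted p under 0.05, 8 of 60 genes were found for stress in females, where 7.51% of all genes were. Of these 5 were higher, against 3.69% of all genes, and 3 lower, against 3.83%. The stressed and control groups did not overlap for 1 of 60, against 1.22% of all genes. For stress in males there were 12, of which 11 were lower in stressed mice and 1, Lamb1, was higher. All genes gave 15.5% in that contrast, 6.76% lower and 8.71% higher. The log2 difference was below 0 for 43 of 60 genes in males, against 52.4% of all genes, with a median of -0.07 against -0.01. In females 33 of 60 were below 0, against 50.5% of all genes, with a median of -0.01 against -0.001. Averaged over the sexes, 12 of 60 genes had an unadjusted p under 0.05, against 12.7% of all genes. Of these 2 were higher (7.45% of all genes) and 10 lower (5.27%), and 36 of 60 were below 0, against 53.1%. Bulk tissue cannot tell fewer cells of a type from less RNA per cell, and this holds for every value below.

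**Figure D2:**
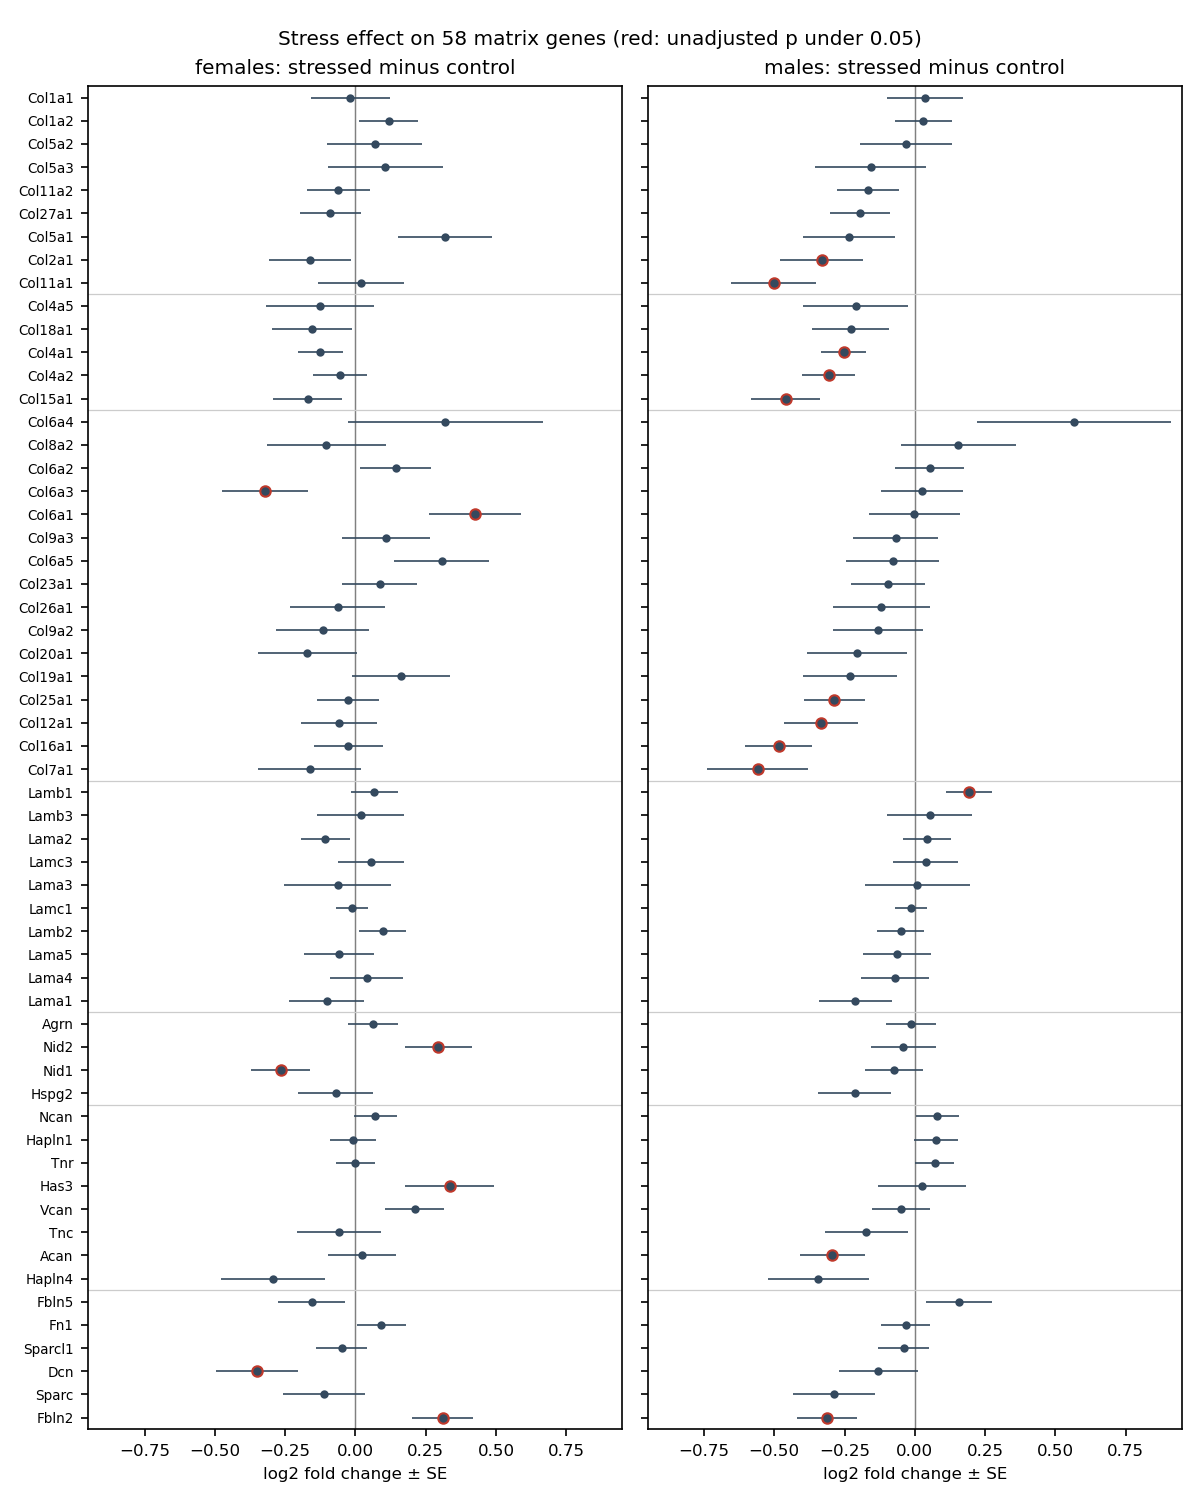
Log2 fold change (stressed minus control) with its SE for 58 matrix genes, females on the left and males on the right, grouped by role and ordered by the male value within a role. Red rings mark an unadjusted p under 0.05, found for 7 of the genes shown in females and 12 in males (1 of the 12, Lamb1, to the right of 0), and no gene passed the adjusted test.

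The 5 basement membrane collagens were below 0 in both sexes, with a median log2 difference of -0.13 in females and -0.25 in males. The network collagen gene Col4a1 stood at 53.1, 51.1, 56.1, 49.8 and 48.6 CPM in male controls 1 to 5, whereas stressed males had 46.4, 35.5, 44.5, 41.4 and 48.0 CPM. Every stressed male library was thus below every control male library, though the highest stressed library (48.0) came close to the lowest control (48.6). The difference was -0.25 on the log2 scale (SE 0.08, adjusted p 0.127, edgeR's quasi-likelihood test). Control females had 52.2, 57.0, 46.4, 53.8 and 43.8 CPM of Col4a1, stressed females had 42.5, 51.2, 42.3, 46.3 and 48.4 CPM, and the groups overlapped (-0.12, SE 0.08).

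Col4a2, which encodes its partner chain, had 79.4, 65.3, 77.5, 65.4 and 61.4 CPM in male controls, and the stressed libraries had 62.0, 50.3, 57.4, 51.9 and 59.7 CPM. Only the highest stressed library reached the lowest control library (-0.31, SE 0.09, adjusted p 0.124). Col15a1, a collagen that links vascular basement membranes to the tissue around them, had 11.8, 9.15, 12.01, 10.02 and 8.03 CPM in male controls, against 7.72, 5.72, 7.26, 7.82 and 7.62 CPM with stress. These groups did not overlap either, and the difference was -0.46 (SE 0.12, adjusted p 0.0948), or -0.29 (adjusted p 0.811) once a score of striatal markers, which also differed in this contrast, entered the fit. Groups did not overlap for 2 of the 60 genes in this contrast, Col4a1 and Col15a1, while 4.3% of all genes had groups that did not. With the sexes averaged, Col15a1 (-0.31, SE 0.09) and Col4a1 (-0.19, SE 0.06) had the smallest p of the 60, each with an adjusted p of 0.256. Col18a1, the source of endostatin, and Col4a5 differed by -0.23 (SE 0.14) and -0.21 (SE 0.19) in males.

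Endothelial markers had the other sign in males and the same sign in females: in stressed males 11 of 13 were above 0, with a median of 0.09, and in stressed females 9 of 13 were below 0, with a median of -0.09. Their summed level ranged from 382 to 421 CPM in male controls, and stressed males gave 396 to 451 CPM. Other vessel-associated markers were mixed in stressed males. Of the pericyte markers 5 of 6 were above 0 (median 0.06). Below 0 were 4 of 5 smooth muscle markers (median -0.06) and 4 of 5 meningeal fibroblast markers (median -0.07). In stressed females 4 of 6 pericyte, 4 of 5 smooth muscle and 4 of 5 meningeal fibroblast markers were below 0. With a vascular marker score as a covariate, the median stress difference of the 60 genes in males was -0.08, against -0.07 without it. The count called was 0 of 60 with and without the score, so it carries no information on vessel content. The part of vessel content in the collagen differences was not tested.

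**Figure D3:**
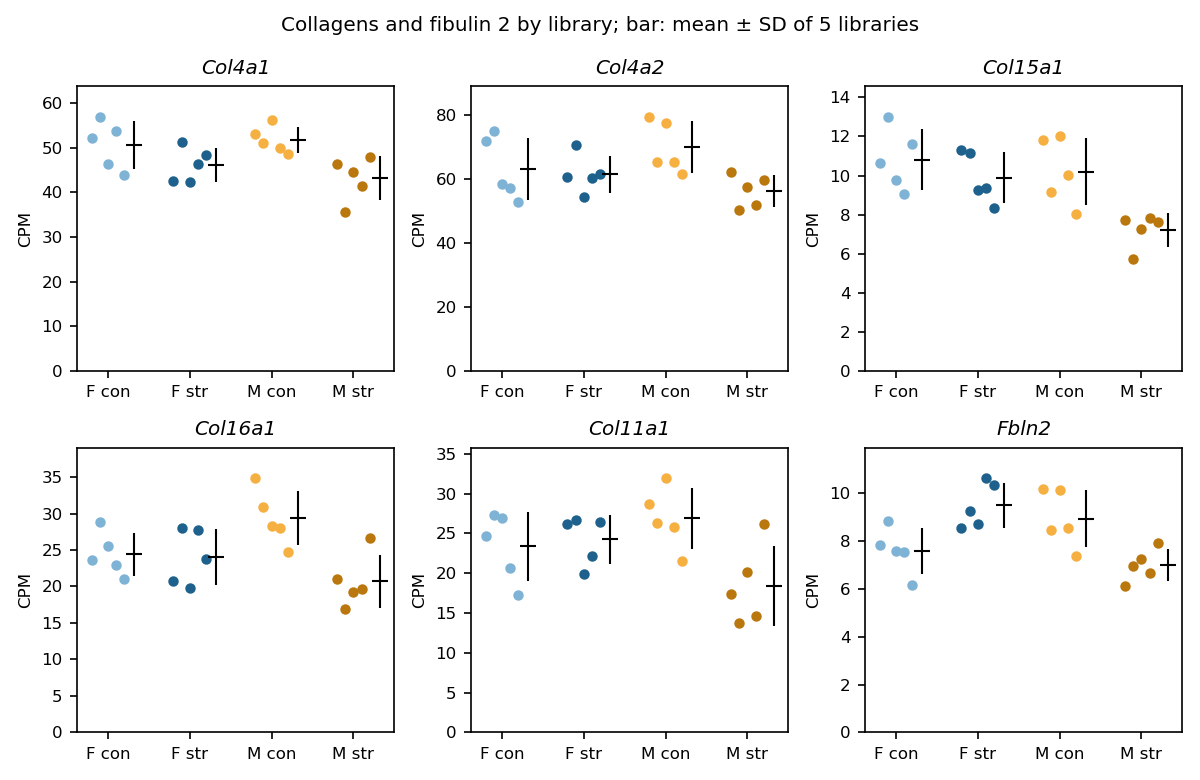
CPM of 5 collagen genes and Fbln2 in each of 20 libraries, from replicate 1 at the left to replicate 5 at the right of each group, with the mean and SD of 5 libraries as a bar beside them. Each panel has its own axis from 0, and for Col4a1 and Col15a1 the stressed male libraries all lie below the male controls, at most 48.0 and 7.82 CPM.

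Of the 16 collagens outside the fibrillar and basement membrane groups, 4 had an unadjusted p under 0.05 in stressed males, all lower: Col16a1, Col7a1, Col25a1 and Col12a1. All genes gave 15.5% in that contrast, 6.76% lower. Col16a1, a collagen that sits beside fibrils and has the smallest p of the 60 in this contrast, stood at 34.9, 30.9, 28.4, 28.0 and 24.8 CPM in control males, and after stress at 21.03, 16.9, 19.3, 19.6 and 26.7 CPM. All but 1 stressed library, male stressed 5, lay below every control. The difference was -0.48 (SE 0.12, adjusted p 0.0871), and in females it was -0.03 (SE 0.12), with means of 24.4 ± 2.96 and 24.0 ± 3.82 CPM (SD, n = 5). The male difference minus the female one was -0.46 (SE 0.17, adjusted p 0.366).

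Male stressed 5 also stood apart from its group for the minor fibrillar collagen Col11a1, which had 17.4, 13.7, 20.1, 14.6 and 26.2 CPM in stressed males against 28.7, 26.4, 31.97, 25.8 and 21.6 CPM in male controls (-0.50, SE 0.15, adjusted p 0.119). Without that library both genes passed in edgeR, with differences of -0.60 for Col16a1 and -0.68 for Col11a1 and an adjusted p of 0.0348 each, and 0.993% of all genes were called. Since that library was singled out by its values of these same genes, this fit adds no support. With any other 1 male library left out, 0 of the 60 genes were called. In a fit of the male libraries alone Col16a1 passed (adjusted p 0.0431), where 2.33% of all genes were called. Col7a1, the collagen of anchoring fibrils, differed by -0.56 (SE 0.18, adjusted p 0.135) between means of 7.03 ± 1.02 and 4.48 ± 1.22 CPM. The striatal marker genes differed in the same contrast: all 12 were higher in stressed males at an unadjusted p under 0.05, with a median of 0.56, and their sums were 2383 to 2998 CPM in male controls, against 3376 to 5190 CPM. Of the 15 markers of the region's own neurons, 10 were below 0 and 5 above, with a median of -0.15. At an unadjusted p under 0.05 there were 6 of these, 5 lower and 1 higher, against 15.5% of all genes. Once the striatal score was added as a covariate, Col16a1 differed by -0.34 and Col11a1 by -0.37, and the adjusted p of both was 0.808. In that fit Col25a1 differed by -0.05 (adjusted p 0.968) in place of -0.29, and Col12a1 by -0.18 (adjusted p 0.889) in place of -0.33.

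Type I collagen, the main collagen of ordinary connective tissue, had smaller differences. Its chain genes Col1a1 and Col1a2 differed by 0.04 (SE 0.14) and 0.03 (SE 0.10) in males and by -0.02 (SE 0.14) and 0.12 (SE 0.11) in females. Col1a1 averaged between 5.63 and 6.13 CPM in the 4 groups. Col2a1, the cartilage collagen and the lowest fibrillar chain per kb, averaged 5.13 ± 0.790, 4.54 ± 0.666, 4.11 ± 0.894 and 3.41 ± 0.529 CPM in female controls, stressed females, male controls and stressed males. Its stress difference was -0.33 (SE 0.15, adjusted p 0.274) in males, or -0.23 with a striatal score in the fit, and -0.16 (SE 0.14) in females. Between stressed males and stressed females it was -0.46 (SE 0.14, adjusted p 0.626), the lowest of the 60 genes in that contrast.

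Collagen VI forms beaded filaments around cells, and its most abundant chain gene, Col6a1, had its largest difference in females. Female controls had 225, 239.6, 154, 144 and 155 CPM, while stress gave 254, 177, 224, 266 and 328 CPM. Female controls 1 and 2 stood above the other three, and female stressed 2 lay among the controls while female stressed 5 was the highest of all 20 libraries. The difference was 0.43 (SE 0.16, adjusted p 0.608), and in males it was near 0 (SE 0.16), between means of 208 ± 29.1 and 207 ± 41.4 CPM. All 10 oligodendrocyte markers were below 0 in stressed females, with a median of -0.22. Of these 5 had an unadjusted p under 0.05, against 7.51% of all genes. After removing group means, Col6a1 had r = -0.765 with the oligodendrocyte marker score. The part of this shift in the female stress values was not tested. Col6a2 had 0.14 (SE 0.13) in females, and Col6a3, the third chain of the classical trimer, had -0.32 (SE 0.15), or -0.10 without female control 2. Col6a4, a further chain of the family, had the highest stress difference of the 60 genes in males (0.57, SE 0.35, adjusted p 0.456) and averaged over the sexes (0.44, SE 0.25, adjusted p 0.443), with 0.32 (SE 0.35) in females. It stood at 18.7, 7.13, 19.4, 7.48 and 6.32 CPM in male controls, and stress gave 15.04, 10.6, 22.99, 8.44 and 23.5 CPM. These groups overlapped widely, and the male difference ran from 0.36 without male control 5 to 0.85 without male control 1. With the striatal score in the fit it was 0.21, and the averaged one 0.22.

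Laminins, the other polymer of basement membranes, had a median stress difference over 11 chains of 0.02 in females and 0.01 in males. The vascular and parenchymal chain Lamb1 was the gene with an unadjusted p under 0.05 that was higher in stressed males (39.0 ± 2.12 against 44.5 ± 3.83 CPM, 0.19, SE 0.08, adjusted p 0.250). Its level had r = 0.916 with the striatal marker score over the 20 libraries, and with that score in the fit the male difference was -0.048. Its common partner Lamc1 averaged 51.3 to 52.4 CPM in all 4 groups, and Lama1, Lama2 and Lamb2 differed by -0.21, 0.04 and -0.05 in males and by -0.10, -0.11 and 0.10 in females.

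The nidogens, which bridge laminin and collagen IV, pointed in opposite directions in females. Nid1 stood at 12.8, 11.2, 15.8, 12.4 and 13.3 CPM without stress and at 9.37, 11.3, 9.95, 12.3 and 11.2 CPM with it (-0.27, SE 0.11, adjusted p 0.613), and with the vascular score in the fit the difference was -0.14. Nid2 averaged 3.90 ± 0.730 and 4.75 ± 0.510 CPM (0.29, SE 0.12, adjusted p 0.617). In males the values were -0.07 (SE 0.10) and -0.04 (SE 0.11). Agrn, the agrin gene and the most abundant basement membrane proteoglycan here, averaged 236 to 253 CPM in all groups, with stress differences of 0.06 and -0.01. Hspg2, which encodes perlecan, had -0.07 in females and -0.21 in males.

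Among the 8 perineuronal net and lectican genes, Ncan, Tnr and Hapln1 had similar means in the 4 groups. Ncan, the neurocan gene, averaged 201 ± 24.95, 210 ± 19.3, 195 ± 7.93 and 206 ± 14.1 CPM in female controls, stressed females, male controls and stressed males. Tnr averaged 128 ± 4.41, 128 ± 16.3, 126 ± 7.26 and 132 ± 9.64 CPM in the same order. The link protein gene Hapln1 lay between 16.3 and 23.6 CPM in all 20 libraries. The stress differences of these 3 genes ran from -0.01 to 0.08 in both sexes, each with an SE of 0.07 or 0.08.

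Acan, which encodes aggrecan, the lectican typical of mature nets, was low, and none of its differences passed the test. Female controls had 4.09, 3.42, 4.00, 4.52 and 3.51 CPM, the stressed 3.85, 4.09, 3.68, 3.34 and 4.35, male controls 4.78, 4.71, 4.77, 5.09 and 4.28, and stressed males 5.06, 3.96, 3.89, 3.25 and 3.74 CPM. Male controls thus lay at the top, and female control 4, female stressed 5 and male stressed 1 lay within their range. The difference was 0.30 (SE 0.12, adjusted p 0.237) between male and female controls and -0.29 (SE 0.11, adjusted p 0.210) between stressed and control males. With the vascular score in the fit the former was 0.24 (adjusted p 0.731). With the striatal score the latter had an adjusted p of 0.808, while over all fits tried the difference itself stayed between -0.36 and -0.22. In females stress gave 0.02 (SE 0.12), and the male minus the female stress effect was -0.32 (SE 0.17, adjusted p 0.514). Pvalb, the parvalbumin gene, ranged from 0.821 to 18.7 CPM with a median of 1.60, its 2 highest libraries being female control 3 and female stressed 2. Neither of these had an outlying Acan value.

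Hapln4, the link protein gene of nets around fast-firing cells, had 29.9, 34.5, 47.7, 44.0 and 40.6 CPM in female controls, and stress gave 31.6, 45.0, 27.4, 26.7 and 25.7 CPM. Male controls had 33.4, 32.6, 43.8, 44.0 and 48.3 CPM, and stress gave 44.4, 35.0, 20.9, 36.6 and 27.6 CPM. The groups overlapped in both sexes, with differences of -0.29 and -0.34 (SE 0.18 each), and the averaged effect was -0.32 (SE 0.13, adjusted p 0.317). Without female control 3 the female difference was -0.19, without female stressed 2 it was -0.48, and without male stressed 3 the male difference was -0.21. Once the striatal score entered the fit, the male difference was 0.079 and the averaged one -0.10. Vcan, the versican gene, had 0.21 (SE 0.11) in females and -0.05 (SE 0.10) in males, and the synthase gene Has3 had 0.34 (SE 0.16) and 0.02 (SE 0.16). Without female stressed 5 the female values were 0.12 for Vcan and 0.21 for Has3. Tnc, the tenascin of growing and injured tissue, averaged 3.01 to 3.79 CPM in the groups and was the lowest of the matrix genes both in CPM and per kb.

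**Figure D4:**
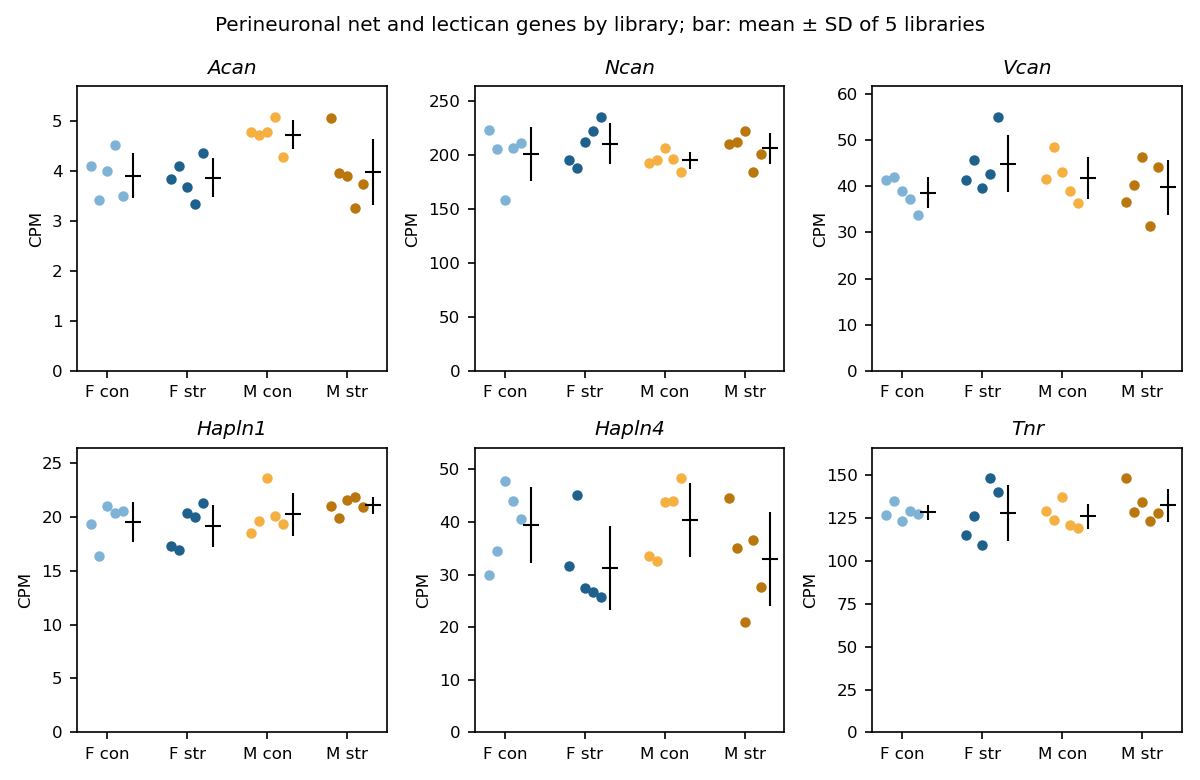
CPM of 6 perineuronal net and lectican genes in each of 20 libraries, replicates 1 to 5 from left to right in each group, with the mean and SD of 5 libraries as a bar beside them and an axis from 0 in every panel. Ncan, Tnr and Hapln1 keep similar means in all groups, Acan is highest in male controls (mean 4.73 CPM), and Hapln4 spreads widely, from 20.9 to 48.3 CPM.

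Among matricellular and interstitial glycoproteins, Fbln2 (fibulin 2, which binds several basement membrane proteins) had stress differences of opposite sign in the sexes. In females it had 7.82, 8.84, 7.58, 7.53 and 6.17 CPM without stress and 8.53, 9.23, 8.70, 10.6 and 10.3 CPM with it. In males it had 10.2, 8.48, 10.1, 8.54 and 7.38 CPM without stress and 6.12, 6.95, 7.26, 6.67 and 7.93 CPM with it. Stressed females were mostly above their controls and stressed males mostly below theirs, with 1 or more overlapping libraries in each sex. The differences were 0.31 (SE 0.11, adjusted p 0.583) in females and -0.31 (SE 0.11, adjusted p 0.160) in males. The test of the difference between them gave -0.62 (SE 0.15, adjusted p 0.260), the smallest p of the 60 genes in that contrast, and it did not pass. In that contrast 4 of 60 genes had an unadjusted p under 0.05, all below 0 (Fbln2, Col16a1, Col11a1 and Col5a1), against 10.4% of all genes and 5.03% below 0, where 5.34% were above. Its value was below 0 for 45 of 60 genes, against 49.1% of all genes, with a median of -0.11 against 0.003.

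The most abundant members, Sparc and Sparcl1, did not pass in any contrast. Sparc, a collagen-binding protein gene, averaged 692 ± 78.0 CPM in control males against 567 ± 106 CPM with stress (-0.29, SE 0.15, adjusted p 0.348), a difference that was -0.18 without male stressed 3 and 0.078 once the striatal score entered the fit. Male stressed 3 had the lowest value of all 20 libraries at 387 CPM. Sparcl1 averaged from 1882 to 1978 CPM in the 4 groups. Dcn, which encodes the small proteoglycan decorin of connective tissue, had 10.3 ± 2.41 CPM in control females against 7.77 ± 0.661 CPM with stress (-0.35, SE 0.15, adjusted p 0.617), or -0.21 without female control 3, and -0.13 (SE 0.14) in males.

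Between the sexes, 7 of 60 genes had an unadjusted p under 0.05 in controls, where 15.3% of all genes did. Of these 4 were higher in males (Col25a1, Acan and Col4a3bp among them), against 7.08% of all genes, and 3 lower (Fbln5, Fn1 and Col26a1), against 8.17%. Among all 60 genes 28 were below 0, against 49.9% of all genes. Col25a1, whose shed fragment is found in amyloid plaques, stood at 98.8, 122, 136, 122 and 110.0 CPM in female controls and at 154, 161, 146, 167 and 164 CPM in male controls. The groups did not overlap and the difference was 0.43 (SE 0.11, adjusted p 0.0620). Col25a1 passed without female control 3, the highest of the female controls (0.50, adjusted p 0.0355), where 1.65% of all genes were called. It also passed in a fit of the control libraries alone (adjusted p 0.00759), where 2.34% of all genes were called. Stressed mice had 115 ± 13.2 CPM in females and 131 ± 27.2 CPM in males (0.17, SE 0.11), with a lowest male value of 97.8 CPM in male stressed 3. In controls 11 of 12 striatal markers were lower in males at an unadjusted p under 0.05, with a median of -0.59, and with that score as a covariate Col25a1 differed by 0.23. Among marker genes the endothelial tight junction gene Cldn5 was called lower in male controls (19.5 ± 1.73 against 26.8 ± 2.01 CPM, -0.44, SE 0.08, adjusted p 0.0122), and the neuropeptide gene Tac2 was called higher (0.84, SE 0.18, adjusted p 0.0306). The part of vessel or neuron content in the matrix values was not tested beyond the 2 covariates.

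Fbln5, which encodes a fibulin needed to assemble elastic fibers, stood at 8.11, 8.08, 7.65, 11.3 and 9.79 CPM in female controls and 7.32, 6.59, 6.51, 6.60 and 5.72 CPM in male controls (-0.40, SE 0.12, adjusted p 0.119). These groups were separate too, and with Col25a1 and Col4a3bp they made 3 of 60, against 3.97% of all genes. Col4a3bp, the gene that is no collagen, averaged 106 ± 5.38 and 116 ± 4.50 CPM (0.13, SE 0.05), or 0.08 with the striatal score in the fit.

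In stressed mice the matrix genes were mostly lower in males: 47 of 60 were below 0, against 50.1% of all genes, with a median of -0.08 against -0.0003. At an unadjusted p under 0.05 there were 8, against 7.06% of all genes. Of these 7 were lower in males (3.35% of all genes) and 1, Col4a3bp, was higher (3.71% of all genes). Fbln2 came first (-0.43, SE 0.10, adjusted p 0.260), followed by Fn1, the fibronectin gene (-0.32, SE 0.08, adjusted p 0.421), and Col15a1 (-0.43, SE 0.12, adjusted p 0.507). Fn1 stood at 49.4, 55.2, 49.4, 63.2 and 70.7 CPM in females and at 44.6, 53.8, 45.1, 40.9 and 48.4 CPM in males after stress, so that only male stressed 2 reached into the female range. Fbln2 and Col15a1 had groups that did not overlap, 2 of 60, against 1.27% of all genes. The sex and stress contrasts share libraries, so these values and those above are not separate evidence.

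Genes that process, cut or bind the matrix were read from 5 lists, chosen like the members with earlier results known, in the same fit. Of the 18 collagen folding and crosslinking genes measured, P4ha2, a collagen prolyl hydroxylase subunit, was called higher in male than in female controls (16.4 ± 2.73 against 11.3 ± 0.478 CPM, 0.52, SE 0.11, adjusted p 0.0270). The brain matrix gene Spock3, a testican, was called lower in male controls (228 ± 17.5 against 298 ± 30.9 CPM, -0.38, SE 0.09, adjusted p 0.0445). No other gene of the lists was called in any contrast. For stress in females, 3 of 18 folding genes had an unadjusted p under 0.05, all higher, led by the collagen chaperone gene Serpinh1 (0.29, SE 0.09, adjusted p 0.565). The other lists gave 1 of 19 proteases and inhibitors (1 higher), 1 of 20 receptors (0 higher), 3 of 19 chondroitin sulfate and hyaluronan enzymes (3 higher) and 3 of 29 other brain matrix genes (1 higher). All genes gave 7.51% there, 3.69% higher. For stress in males the counts at an unadjusted p under 0.05 were 3 of 18 folding genes (0 higher), 5 of 19 proteases and inhibitors (1 higher), 5 of 20 receptors (2 higher), 4 of 19 chondroitin sulfate and hyaluronan enzymes (2 higher) and 8 of 29 other brain matrix genes (1 higher). The smallest p in each of these belonged to P4ha2, Mmp17, Itga7, Chst15 and Spock3, with adjusted p-values of 0.176, 0.174, 0.149, 0.115 and 0.0871. All genes gave 15.5% in this contrast, as stated above. Bcan, the brevican gene and a lectican outside the rule, averaged 236 to 246 CPM in the 4 groups.

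Partner or related genes were compared over the 20 libraries after removing group means, for 8 pairs. Sparc and Sparcl1 were closest (r = 0.944, rho = 0.923, permutation p 1e-05, the smallest the resamples can give, adjusted p 8e-05, r = 0.925 without the 2 libraries farthest from the median of Sparc). Col4a1 and Col4a2 followed (r = 0.791, rho = 0.777, permutation p 4e-05, adjusted p 0.00016, r = 0.756 without 2 libraries). The other 6 pairs did not pass, among them Col1a1 with Col1a2 (r = 0.307, adjusted p 0.317 by permutation) and Acan with Hapln1 (r = 0.117) and Hapln4 (r = 0.256). Ncan and Vcan had r = 0.366 (adjusted p 0.303 by permutation), and r = 0.600 without female control 3 and female stressed 2.

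Neighbouring matrix genes within 150 kb made 6 pairs, a rule set after the values were seen. Col6a1 and Col6a2 had r = 0.879 (rho = 0.853, permutation p 1e-05, adjusted p 6e-05, r = 0.888 without 2 libraries), and with Col4a1 and Col4a2, whose windows are printed above, they were the closest. Hapln4 and Ncan, whose ends lie 2.22 kb apart on opposite strands of chromosome 8, went in opposite directions (r = -0.567, rho = -0.532, permutation p 0.00866, adjusted p 0.0173, r = -0.467 without 2 libraries). Hapln1 and Vcan, 43.7 kb apart, had r = -0.03. Nearness on the chromosome was thus found with positive, negative and near-zero values. The astrocyte marker score had r = -0.897 with Col6a1 and -0.789 with Col6a2, but -0.206 with Col4a1 and -0.267 with Col4a2. For Hapln4 and Ncan it had r = 0.815 and -0.711, and the striatal score had r = -0.698 and 0.824. The part of tissue makeup in these pairs was not tested.

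**Figure D5:**
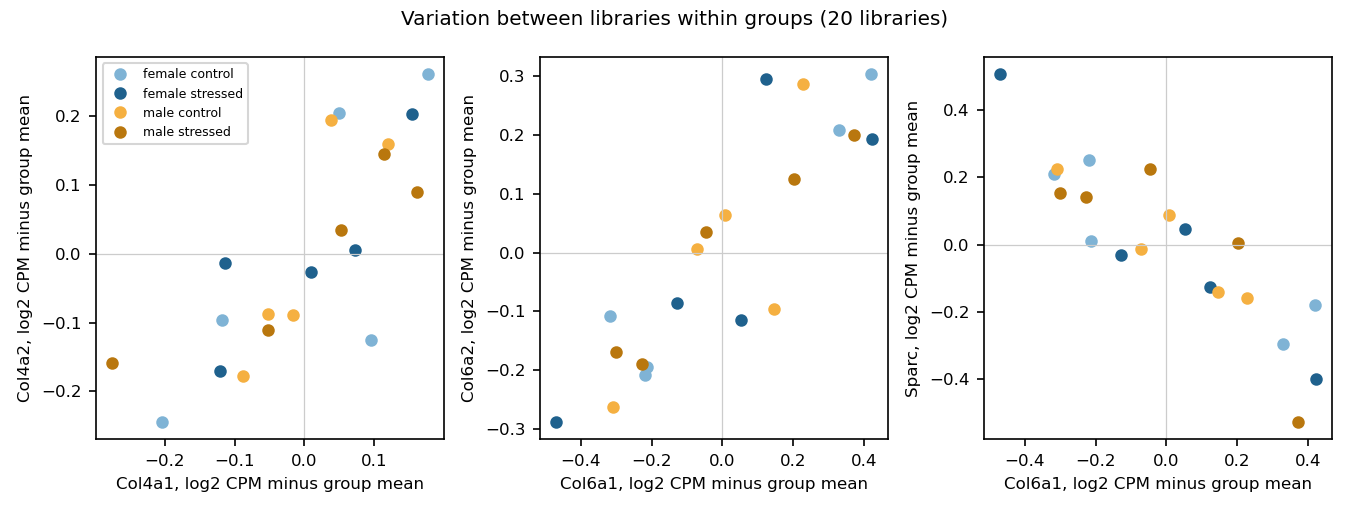
Deviation of each of 20 libraries from its group mean, in log2 CPM, for Col4a1 and Col4a2 (left), Col6a1 and Col6a2 (middle) and Col6a1 and Sparc (right), with colours for the 4 groups. The first pairs slope upward (r = 0.791 and 0.879) and the last slopes downward (r = -0.885).

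Over all 1711 pairs of matrix genes the mean r was 0.169, against 0.001 for pairs of all genes. Scaling each library tends to hold the mean over all genes near 0, so the latter is no baseline for a small set. As a description only, Hapln4 followed Sparc (r = 0.935) and Col6a1 ran against Sparc (r = -0.885), Sparcl1 (r = -0.853) and Hapln4 (r = -0.825). The libraries share depth and tissue makeup: over the same 20 libraries the astrocyte marker score had r = 0.934 with Sparc, 0.815 with Hapln4 and -0.897 with Col6a1, and the thalamic score had r = 0.829 with Sparc. Their part in these relations was not tested.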

How the data were processed

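RNA sequencing counts were analysed from 20 libraries of the anterodorsal bed nucleus (BNST), 5 in each of 4 groups. The table deposited by the authors gives raw, unscaled counts (whole numbers) for each gene symbol. The kit was a stranded one for mRNA, per the labels' protocols, and the submitters' processing notes name STAR, featureCounts and mm10, without versions. The counting options, the strand setting and the annotation are not given in the sources used here. Since the strand setting is unknown, overlapping genes such as Col4a1 and Col4a2 (22 shared bases) could exchange reads. The lowest row total was 1002, so genes with fewer counts were not analysed here.

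Every column was assigned to its group by its label. Counts were fitted with edgeR 4.0.16 in R 4.3.3: TMM normalization, filterByExpr (which kept all 12988 genes), 1 mean per group, and quasi-likelihood F-tests, not robust. The 6 contrasts each had Benjamini-Hochberg adjustment over the 12988 genes, with 0.05 as the limit for calling a gene. Adjusted p-values of differences are from this test unless DESeq2 (1.42.0) or a permutation is named, and differences are log2 fold changes with the SE of the fit. The common biological coefficient of variation was 8.83%. CPM uses the TMM factors, and log2 CPM a prior count of 2. Lengths and positions are from GENCODE M21, promoter windows from RefSeq GRCm38.p6. Correlations used log2 CPM centred on group means and two-sided permutation tests with 100000 resamples (scipy 1.17.1), adjusted over the pairs. The pipeline was tested on simulated data.

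Genes named with values were the perineuronal net, lectican, type I collagen and main basement membrane genes, Sparc, Sparcl1, Fn1, Dcn, Fbln2, Fbln5 and Has3, the 3 genes with the smallest p in each contrast, and the highest and lowest gene of each role. The values of 1 member are not reported here, and the figures leave it out. Col6a2, Col6a3, Col6a4, Col7a1, Col12a1, Col5a1, Col4a5, Col18a1, Lamb1 and the genes counted at an unadjusted p were named after their values were seen. The members and lists were chosen with earlier results of these data known. Alternatives tried were DESeq2, its size factors in edgeR, limma-voom (limma 3.58.1), the robust option, no filter on low counts, a mean of at least 10 CPM, only the groups compared, the replicate block, striatal and vascular marker scores as covariates, and each library left out.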

Additional observations from a re-analysis of the deposited data

Results flagged for a closer look

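In 164 groups of 5 libraries (41 genes in 4 groups), 8 single libraries lay far from the rest of their group, measured by the gap to the nearest library over the whole range (Dixon's 95% limit). Chance flags about 1 in 20 such groups. Low values were Col15a1 in male stressed 2 at 5.72 CPM (next 7.26), Lamc1 in male stressed 4 at 44.8 CPM (next 52.2), Nid2 in male stressed 4 at 3.81 CPM (next 4.30) and Ncan in female control 3 at 158 CPM (next 205). High values were Col26a1 in male control 1 at 4.48 CPM (next 3.42), Col6a3 in female control 2 at 9.44 CPM (next 6.06), and Col4a3bp in male control 3 at 124 CPM (next 115) and in male stressed 5 at 122 CPM (next 112). Female control 3 is also the library with the highest oligodendrocyte marker sum. No matrix gene passed the test of the difference between the sexes in the stress effect.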

How the results depend on the processing

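The count of 0 called genes among the 60 held in all 6 contrasts with limma-voom, the robust option and DESeq2 size factors in edgeR. It also held with either marker score as a covariate. Leaving out the filter on low counts repeated the main fit, since the filter had kept all 12988 genes. A mean of at least 10 CPM left only 33 of the 60 to test, and 0 of those were called. For stress in males the count of called genes was 2 with DESeq2 (Col11a1 and Col16a1) and 1 in a fit of only the groups compared (Col16a1). With 1 library left out that count ran from 0 to 2, the latter without male stressed 5. For sex in controls it was 1 (Col25a1) with DESeq2, with only the groups compared, and with female control 3, female stressed 2 and male stressed 3 left out together (0.50, adjusted p 0.00323), an alternative chosen after seeing the data that called 541 of 12988 genes (4.17%). With 1 library left out there it ran from 0 to 1, the latter without female control 3. The other 4 contrasts gave 0 calls in every alternative run. With the striatal score as a covariate the male stress difference turned to 0.079 for Hapln4, -0.048 for Lamb1 and 0.078 for Sparc, and the cause was not tested. Without centring on group means, Nid1 and Col4a1 had r = 0.104 in place of -0.257. Ncan and Vcan had r = 0.600 without the 2 farthest libraries, past the threshold. Replicate numbers did not pair the libraries: 5 of 30 same-numbered pairs had r above 0.1, the range was -0.473 to 0.237, and 0 of 20 libraries matched best with their own number. The replicate block gave 0 calls among the 60 in every contrast. Over the whole table, calls for stress in males numbered 1, against 239 with DESeq2 and 303 with only the groups compared, and those for sex in controls 97, against 248, 304 and 48 with the replicate block. With 2707881 counts, female control 4 limits the precision of genes at a few CPM.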
